A study of Homo sapiens with 4 samples.

Results

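Cadherins and regulators of the epithelial to mesenchymal transition (EMT) were followed in HUES8, a human embryonic stem cell line. The set was given by name as 9 genes, CDH1, CDH2, EPCAM, VIM, SNAI1, SNAI2, ZEB1, ZEB2 and TWIST1, and all 9 have a row among the 59050 genes of the count table. RNA-seq was measured in 2 libraries labelled CPT2 KO and 2 labelled WT. All 4 libraries came from undifferentiated cells on Matrigel in mTeSR1 medium, and the treatment label reads WT in all of them. How the knockout was made, whether the KO cells are 1 clone or several, and whether replicates are separate cultures are not stated in the labels. A p-value here therefore reflects how much the 4 libraries vary, and that variation could be technical. CPT2 encodes the mitochondrial carnitine palmitoyltransferase that feeds long-chain acyl groups into fatty acid oxidation. The series title names fatty acid synthesis and oxidation in definitive endoderm, and the 2 genotypes compared here were sampled before any differentiation.

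Embryonic stem cells grow as an epithelium, held together by E-cadherin (CDH1) and by EpCAM, an adhesion molecule of epithelial and pluripotent cells. In gastrulation and in carcinoma, cells that leave an epithelium lower CDH1, take up N-cadherin (CDH2) and build vimentin (VIM) filaments. Repressors of the SNAI, ZEB and TWIST families drive this switch by binding E-box sequences, and microRNAs of the miR-200 family hold ZEB1 and ZEB2 down in epithelia.

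The microRNA seeds are shown first, because the ZEB genes carry many matches to them. The part of these microRNAs in the levels of the ZEB genes was not tested. Mature sequences are from RefSeq (GRCh38.p14), 5′ to 3′, with the seed (bases 2 to 8) in capitals. The first 3 share 1 seed, the next 2 share another, and miR-205 has its own.
hsa-miR-200b-3p: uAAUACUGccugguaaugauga
hsa-miR-200c-3p: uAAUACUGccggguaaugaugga
hsa-miR-429: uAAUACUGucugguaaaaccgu
hsa-miR-200a-3p: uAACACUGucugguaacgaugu
hsa-miR-141-3p: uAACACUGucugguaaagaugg
hsa-miR-205-5p: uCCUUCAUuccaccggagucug

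In the 3′ untranslated region of each gene, taken from the GENCODE 29 coding transcript with the longest one, the complement of the first seed, CAGTATT, occurred 6 times in ZEB1 and 5 times in ZEB2. It occurred 1 time in SNAI2 and 0 times in CDH1, CDH2, EPCAM, VIM, SNAI1 and TWIST1. Of 19133 genes with such a region, 16.0% held at least 1 CAGTATT, 0.0157% held as many as ZEB1 and 0.0366% as many as ZEB2. The complement of the second seed, CAGTGTT, occurred 3 times in ZEB1, 4 times in ZEB2 and 0 times in the other 7 genes, and was present in 18.3% of genes. The complement of the miR-205 seed, ATGAAGG, occurred 1 time in ZEB1 and 0 times in the other 8, and was present in 11.7% of genes. Only the transcript strand was searched, with no correction for length, in 2549 bases of ZEB1 and 5370 of ZEB2. The first site of each ZEB gene is printed with the seed match in capitals.
ZEB1: gttttatcttatCAGTATTatcac
ZEB2: actaccatacatCAGTATTtttat

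The libraries labelled CPT2 KO held 20219396 and 16887789 counts and those labelled WT held 18356754 and 20460031. Levels are given as CPM, after TMM scaling of the library sizes, where 1 count is worth 0.0485 to 0.0603 CPM. Levels of different genes are compared as TPM, which also divides by the gene length in the table. The labels have to be read with care, because CPT2 itself had 233 and 170 counts in the libraries labelled CPT2 KO, against 52 and 72 in those labelled WT (log2 fold change 1.78, SE 0.27, edgeR adjusted p = 0.0218). Leaving out a library labelled CPT2 KO ended the call, at an edgeR adjusted p of 0.168 for replicate 1 and 0.0511 for replicate 2. Replicate 1 labelled WT stood apart, with a chi-square per gene of 45.8 and 53.3 against the libraries labelled CPT2 KO and 39.6 against replicate 2 labelled WT, while the other pairs ranged from 10.5 to 12.6. By Pearson correlation of log2 CPM it was less apart, at 0.979 with replicate 2 labelled WT and 0.972 and 0.963 with the libraries labelled CPT2 KO. The other pairs ranged from 0.977 to 0.981. Replicate 1 labelled WT also had 4.15% of its counts on mitochondrial genes, against 7.21% to 7.84% in the other 3, and the part of this in the results was not tested. Pluripotency markers were present in every library, their 10 genes summing to 10611 and 12004 CPM in the libraries labelled CPT2 KO and to 10224 and 10970 CPM in those labelled WT. Mesendoderm markers differed, with 10 genes summing to 339 and 93.0 CPM in the libraries labelled CPT2 KO, against 12.7 and 11.2 CPM in those labelled WT, and GSC and CER1 at 0 in replicate 2 labelled WT. Of the 9 mesendoderm genes tested, edgeR called 2 higher, FGF8 and NODAL, and 0 lower, against 0.359% and 0.0569% of all tested genes. FGF8, GSC, CER1 and TBXT passed the filter on low counts through the libraries labelled CPT2 KO alone, and MESP1 did not pass. The filter thus had a part in the split between higher and lower. The part of these markers in the values below was not tested, and fewer cells of a type cannot be told apart from less RNA per cell in bulk libraries.

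None of the 9 genes was called different between the groups. Of the 9, 6 passed the filter on low counts and were tested, with 0 higher and 0 lower by the quasi-likelihood test of edgeR at an adjusted p of 0.05. Of the 17564 genes tested 0.416% were called, 0.359% higher and 0.0569% lower. DESeq2 and limma-voom also called 0 of the 6, and 0 had an unadjusted p under 0.05 in edgeR, against 9.04% of all tested genes. SNAI2, ZEB2 and TWIST1 did not pass the filter. ZEB1 passed through the libraries labelled WT alone and is 1 of the 6, so the counts over the tested genes are not counts over the whole set.

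**Figure D1:**
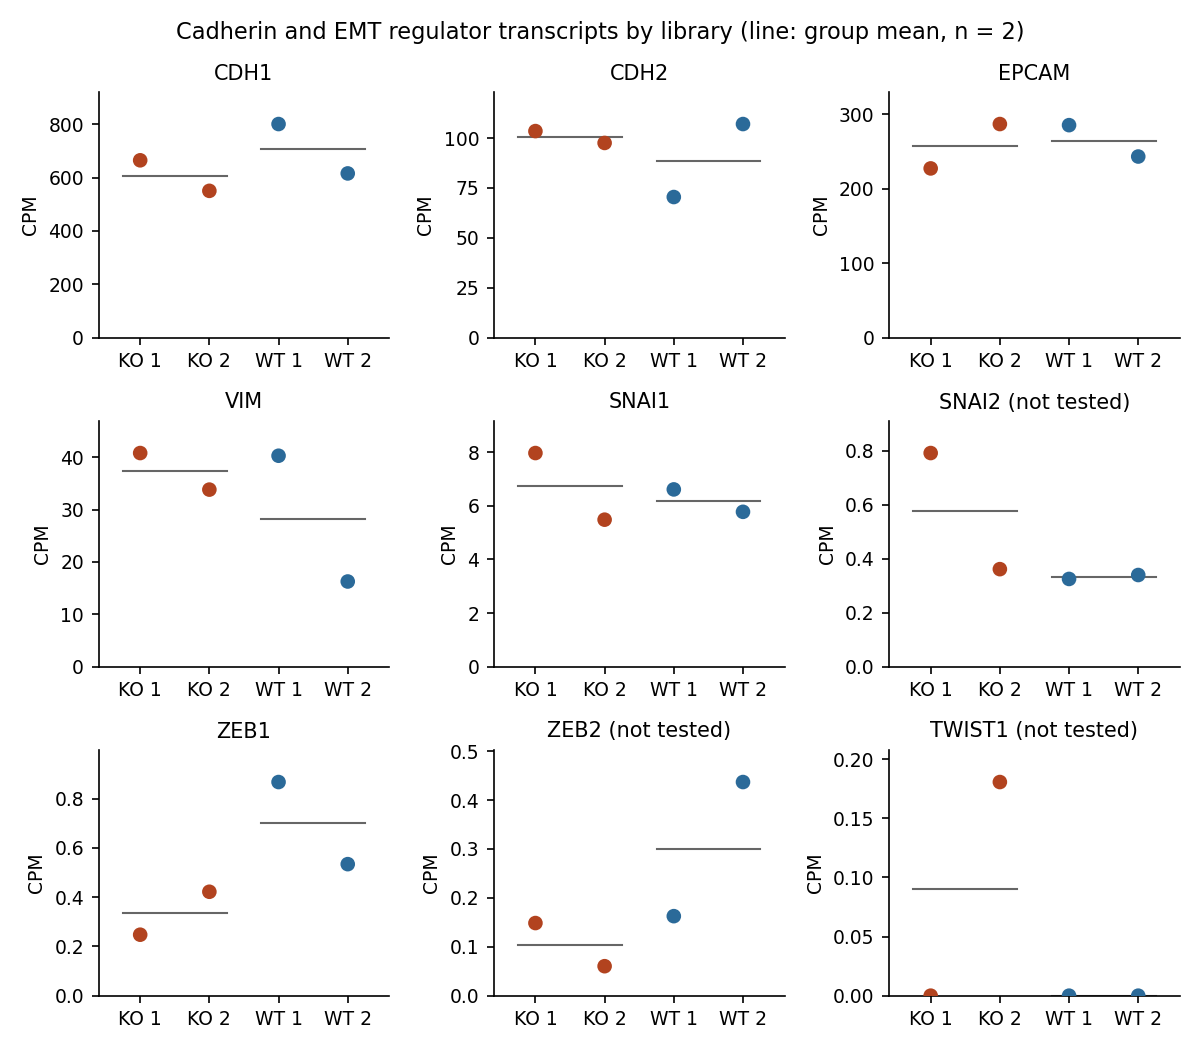
CPM (y axis, linear from 0, its own scale in each panel) of the 9 genes in each library, with KO for libraries labelled CPT2 KO and WT for those labelled WT (x axis); points are libraries and lines are group means. Points of the 2 groups interleave for CDH1, CDH2, EPCAM, VIM and SNAI1, and the panels of SNAI2, ZEB1, ZEB2 and TWIST1 span less than 1 CPM.

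By length-scaled level the set fell into an abundant adhesion pair, a middle range and a group near the detection limit. CDH1 averaged 385 TPM over the 4 libraries and EPCAM 368 TPM, each above 99.1% of the 31279 genes with a count. Their ranges over libraries overlapped, from 296 to 519 TPM for CDH1 and from 308 to 448 TPM for EPCAM, so their order is not resolved. CDH2 followed at 71.7 TPM (93.2% of genes with a count were lower), VIM at 22.5 TPM (80.0%) and SNAI1 at 13.4 TPM (73.3%). The lowest library for VIM lay within the range of SNAI1, 10.6 to 16.0 TPM, so these 2 neighbours overlapped too, while CDH2 lay above both in every library. SNAI2 averaged 0.486 TPM, ZEB1 0.218, TWIST1 0.0744 and ZEB2 0.0290 TPM, and the ranges of neighbours overlapped in this group. The lengths in the table cover all annotated exons, 24861 bases for ZEB2 and 5176 for VIM, so TPM understates genes whose main transcript is shorter than that.

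CDH1, which forms the calcium-dependent junctions between epithelial cells, had 665 and 550.3 CPM in the libraries labelled CPT2 KO, against 801 and 616 CPM in those labelled WT. The groups overlapped, since replicate 1 labelled CPT2 KO lay above replicate 2 labelled WT. The means were 608 ± 80.9 CPM in the libraries labelled CPT2 KO and 708 ± 131 CPM in those labelled WT (SD, n = 2 each). The log2 fold change was -0.22 (SE 0.16, edgeR adjusted p = 0.702), and its 95% interval in fold terms ran from 0.669 to 1.10. With a library left out it ranged from -0.40, when replicate 2 labelled WT was dropped (edgeR adjusted p = 0.139), to -0.019, when replicate 1 labelled WT was. Its GRCh38 span is 68737225 to 68835548 of chromosome 16, plus strand. It shares 347 exon bases with AC099314.1 on the opposite strand, which had 2 counts in all 4 libraries together.

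EPCAM had 227 and 287 CPM in the libraries labelled CPT2 KO, against 286 and 243 CPM in those labelled WT. The highest and the lowest library were both labelled CPT2 KO, so the groups overlapped fully. The log2 fold change was -0.040 (SE 0.15, edgeR adjusted p = 0.955), with a 95% interval of 0.767 to 1.23 in fold terms. The value was 0.079 without replicate 1 labelled WT. Its GRCh38 span is 47345158 to 47387601 of chromosome 2, plus strand, and no other annotated exon overlaps it.

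CDH2, the cadherin of neural and mesodermal tissue, had 103 and 97.6 CPM in the libraries labelled CPT2 KO, against 70.5 and 107 CPM in those labelled WT. The lowest and the highest value were the 2 libraries labelled WT, with both libraries labelled CPT2 KO between them. The log2 fold change was 0.18 (SE 0.19, edgeR adjusted p = 0.791), with a 95% interval of 0.849 to 1.51 in fold terms. Neuroectoderm markers, whose cells also express CDH2, summed to 132 and 139 CPM over 10 genes in the libraries labelled CPT2 KO. In those labelled WT they summed to 197 and 166 CPM. ZIC1 was most of each sum, at 78.3 to 94.2 CPM in the libraries labelled CPT2 KO and 110 to 122 in those labelled WT. Of 8 tested, 3 log2 fold changes were positive, and edgeR called 0 higher and 2 lower, against 0.359% and 0.0569% of all tested genes. The 2 were SOX1 and SIX6, and SIX6 passed the filter through the libraries labelled WT alone. SOX1 had 15 and 5 counts in the libraries labelled CPT2 KO and 82 and 130 in those labelled WT. The libraries labelled CPT2 KO alone would not have passed SOX1 either. ZIC1, SOX1 and SIX6 were chosen after their values were seen, and the part of these markers in the CDH2 values was not tested. The CDH2 value turned to -0.090 without replicate 1 labelled WT and was 0.51 without replicate 2 labelled WT (edgeR adjusted p = 0.0614). Its GRCh38 span is 27950966 to 28177446 of chromosome 18, minus strand. It shares 136 exon bases with AC110015.1 on the opposite strand, which had 3 and 12 counts in the libraries labelled CPT2 KO and 0 and 0 in those labelled WT.

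The cadherin switch of an EMT would show in the ratio of CDH2 to CDH1. In TPM this ratio was 0.205 and 0.233 in the libraries labelled CPT2 KO, against 0.116 and 0.229 in those labelled WT. Replicate 2 labelled WT fell between the libraries labelled CPT2 KO, and replicate 1 labelled WT was the library apart. CDH1 was above CDH2 in all 4 libraries. Given the number of libraries no test of this ratio was made.

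VIM, the intermediate filament protein of mesenchymal cells, which is also made by cultured stem cells, had 40.8 and 33.8 CPM in the libraries labelled CPT2 KO, against 40.3 and 16.3 CPM in those labelled WT. Replicate 2 labelled WT was low and the other 3 libraries lay close together. The means were 37.3 ± 4.94 CPM in the libraries labelled CPT2 KO and 28.3 ± 17.0 CPM in those labelled WT (SD, n = 2 each). The log2 fold change was 0.41 (SE 0.46, edgeR adjusted p = 0.821), with a 95% interval of 0.568 to 3.09 in fold terms. Which library labelled WT was kept decided the value. Without replicate 1 labelled WT it was 1.20 and was called (edgeR adjusted p = 0.000442), and without replicate 2 labelled WT it was -0.11 (0.819). Between the 2 libraries labelled WT, VIM differed by 1.30 on the log2 scale, more than all but 3.66% of tested genes. Between those labelled CPT2 KO it differed by 0.27, a difference exceeded by 41.0% of genes. VIM spans 17228259 to 17237593 of chromosome 10 (GRCh38, plus strand). Fibroblast markers summed to 465 and 451 CPM over 11 genes in the libraries labelled CPT2 KO and to 486 and 514 CPM in those labelled WT, with 6 tested and 0 called by edgeR. Most of that sum was THY1, which stem cells also express, at 231 to 284 CPM, and COL1A2 at 161 to 187 CPM. COL3A1, DCN, LUM and ACTA2 were at or below 0.362 CPM in every library, and FAP was at 0 in all. COL1A1 had 29.2 to 32.9 CPM, PDGFRB 3.66 to 5.58 and POSTN 1.30 to 1.93. Of the 6 tested, 3 log2 fold changes were positive and 3 negative. The largest was 1.21 for TAGLN (edgeR adjusted p = 0.118). TAGLN had 11.2 and 10.5 CPM in the libraries labelled CPT2 KO, against 3.85 and 5.48 CPM in those labelled WT. The part of these markers in the VIM values was not tested. The VIM locus shares 641 exon bases with VIM-AS1 on the opposite strand, which had 8 and 8 counts in the libraries labelled CPT2 KO and 13 and 2 in those labelled WT, against 335 to 824 for VIM.

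**Figure D2:**
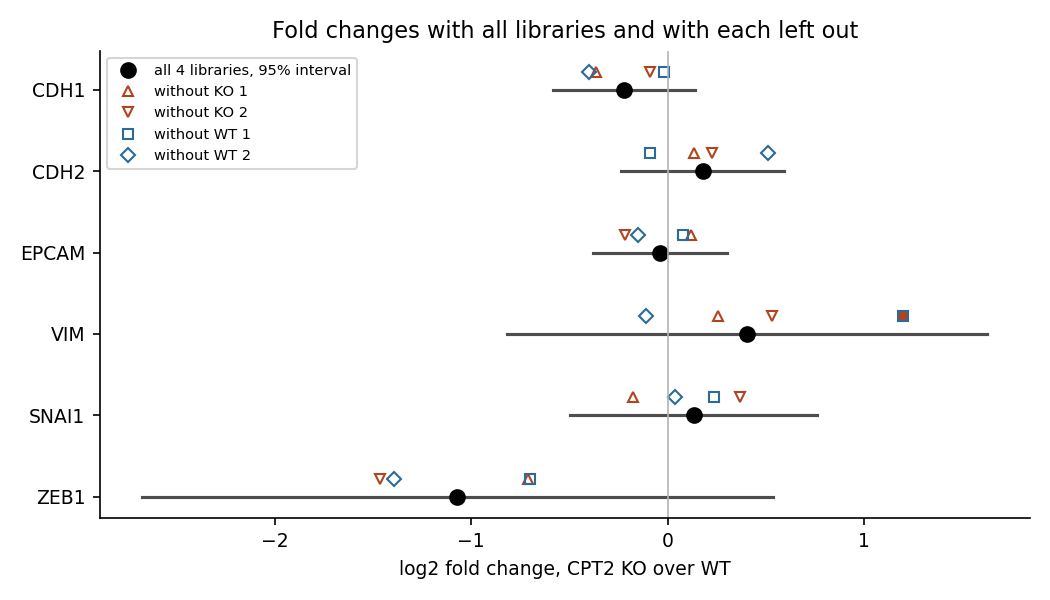
Log2 fold change of CPT2 KO over WT (x axis) for the 6 tested genes (y axis), as black points with 95% intervals from all 4 libraries and as open symbols with each library left out; a filled symbol passed the test. All 6 intervals include 0, and the filled square is VIM without replicate 1 labelled WT, at 1.20.

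SNAI1, the zinc finger repressor of CDH1 that acts at the primitive streak, was the most abundant of the 5 repressors. It had 7.97 and 5.48 CPM in the libraries labelled CPT2 KO, against 6.61 and 5.78 CPM in those labelled WT. Both libraries labelled WT lay between those labelled CPT2 KO. The log2 fold change was 0.13 (SE 0.28, edgeR adjusted p = 0.916), with a 95% interval of 0.709 to 1.69 in fold terms. Without replicate 1 labelled WT it was 0.23. SNAI1 spans 49982999 to 49988886 of chromosome 20 (GRCh38, plus strand), and its processed relative SNAI1P1 had 0 counts in all libraries.

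SNAI2, its paralogue in neural crest and mesoderm, had 16 and 6 counts in the libraries labelled CPT2 KO and 6 and 7 in those labelled WT. Replicate 1 labelled CPT2 KO was high, and in CPM the other library labelled CPT2 KO lay just above both labelled WT, at 0.362 against 0.325 and 0.340 CPM. The ratio of summed counts was 1.80, with a 95% counting interval of 0.866 to 3.88. Such intervals are exact binomial ones and cover counting error only.

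ZEB1, a zinc finger and homeodomain repressor of CDH1, had 5 and 7 counts in the libraries labelled CPT2 KO and 16 and 11 in those labelled WT. The groups did not overlap, at 0.247 and 0.422 CPM in the libraries labelled CPT2 KO, against 0.867 and 0.534 CPM in those labelled WT. ZEB1 was the single tested gene of the set with that pattern, which 40.9% of all tested genes showed, 21.1% with the libraries labelled CPT2 KO higher and 19.8% with them lower. The log2 fold change was -1.07 (SE 0.72, edgeR adjusted p = 0.676). Its 95% interval of 0.157 to 1.45 in fold terms was the widest of the 6 tested genes on the log scale. Leaving out replicate 1 labelled WT gave -0.70. ZEB2, its paralogue, had 3 and 1 counts in the libraries labelled CPT2 KO and 3 and 9 in those labelled WT, a ratio of summed counts of 0.354 (95% counting interval 0.0832 to 1.17). Its 9 counts in replicate 2 labelled WT set that ratio, as the other 3 libraries held 1 to 3 counts. ZEB2 spans 144364364 to 144524583 of chromosome 2 (GRCh38, minus strand).

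ZEB1 spans 31318495 to 31529814 of chromosome 10 (GRCh38, plus strand) and shares 366 exon bases with ZEB1-AS1, which is transcribed from the opposite strand at the same start region. ZEB1-AS1 had more counts than ZEB1 in every library, with 76 and 71 in the libraries labelled CPT2 KO and 122 and 120 in those labelled WT. Its groups did not overlap either, and its log2 fold change was -0.63 (SE 0.29, edgeR adjusted p = 0.552). Since it is not given whether strand was used in counting, reads of this pair cannot be told apart in the shared bases. The promoter of the first ZEB1 start in RefSeq is printed because it carries an E-box and all of its 250 bases are annotated as exon of ZEB1-AS1.
ZEB1, chr10:31318167-31318416, GRCh38.p14, plus strand: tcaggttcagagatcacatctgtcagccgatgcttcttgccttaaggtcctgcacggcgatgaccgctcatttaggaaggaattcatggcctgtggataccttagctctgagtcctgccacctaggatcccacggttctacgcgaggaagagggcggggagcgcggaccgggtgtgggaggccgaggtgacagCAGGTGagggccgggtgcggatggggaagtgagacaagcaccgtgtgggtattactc

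The capitals mark CAGGTG, whose first base lies 57 bases before the start. The search was for CACCTG or CAGGTG, the same word read on either strand, in the 250 bases before each start of the 4 genes matched in the promoter table, CDH2, VIM, ZEB1 and ZEB2. Of these, ZEB1 held it, before the first and the third of its 7 starts, and CDH2, VIM and ZEB2 did not. Among all 35116 promoters listed, 17.5% held it. That share is per promoter, and ZEB1 had 7 of the 11 promoters searched, so a match was likelier in ZEB1 than in the other genes. A match is a word in the sequence and not a measured binding site, and CDH1, EPCAM, SNAI1, SNAI2 and TWIST1 are named here only.

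TWIST1, a basic helix-loop-helix regulator of mesoderm and neural crest, had 0 and 3 counts in the libraries labelled CPT2 KO and 0 and 0 in those labelled WT. Both groups are at or under the floor of 3 counts per library, which allows up to 0.148 CPM in replicate 1 labelled CPT2 KO and up to 0.163 and 0.146 CPM in the libraries labelled WT. Its relative TWIST2 had 65 and 52 counts in the libraries labelled CPT2 KO and 39 and 34 in those labelled WT, so it outnumbered TWIST1 in every library. TWIST2 was not called (log2 fold change 0.76, edgeR adjusted p = 0.576) and was chosen after its values were seen. TWIST1 lies on chromosome 7 at 19020991 to 19117672 and SNAI2 on chromosome 8 at 48917604 to 48921740 (GRCh38, minus strand both).

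The row of MIR200CHG, the transcript around miR-200c and miR-141, had 1 and 6 counts in the libraries labelled CPT2 KO and 0 and 0 in those labelled WT. The hairpin rows of MIR200A, MIR200B, MIR200C, MIR141 and MIR429 had 0 counts in all libraries. Mature microRNAs are shorter than the fragments of standard RNA-seq libraries, so these rows do not measure them. MIR205HG, the transcript around miR-205, had 190 and 240 counts in the libraries labelled CPT2 KO and 192 and 315 in those labelled WT (log2 fold change -0.12, SE 0.27, edgeR adjusted p = 0.923).

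Other cadherins were read from a list of 17 genes, of which 9 were tested and 0 were called by edgeR. CDH3, P-cadherin, stood between CDH1 and CDH2 at 127 TPM, and ranged from 111 to 147 TPM. It had 213 and 206 CPM in the libraries labelled CPT2 KO, against 226 and 225 CPM in those labelled WT, so the groups did not overlap but were close (log2 fold change -0.11, SE 0.13, edgeR adjusted p = 0.823). CDH24 and CDH11 had log2 fold changes of 0.017 and 0.13. The list median was 0.35, against 0.0017 over all tested genes, and 8 of the 9 values were positive. That median was the value of CDH13. Its counts were 12 and 12 in the libraries labelled CPT2 KO and 8 and 12 in those labelled WT. CDH6 lay above the median, as did CDH7, CDH8 and CDH9, whose group means were 0.586 to 5.56 CPM. CDH3, CDH4, CDH11 and CDH24, with group means of 14.3 to 226 CPM, lay below it. The groups did not overlap for 7 of the 9, against 40.9% of all tested genes. Those 7 included the low-count CDH7, CDH8, CDH9 and CDH13, which with CDH4 were chosen after their values were seen. CDH6, a cadherin of kidney and neural crest, had 15.4 and 18.7 CPM in the libraries labelled CPT2 KO, against 9.32 and 13.2 CPM in those labelled WT (log2 fold change 0.60, edgeR adjusted p = 0.481), and was chosen after its values were seen.

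**Figure D3:**
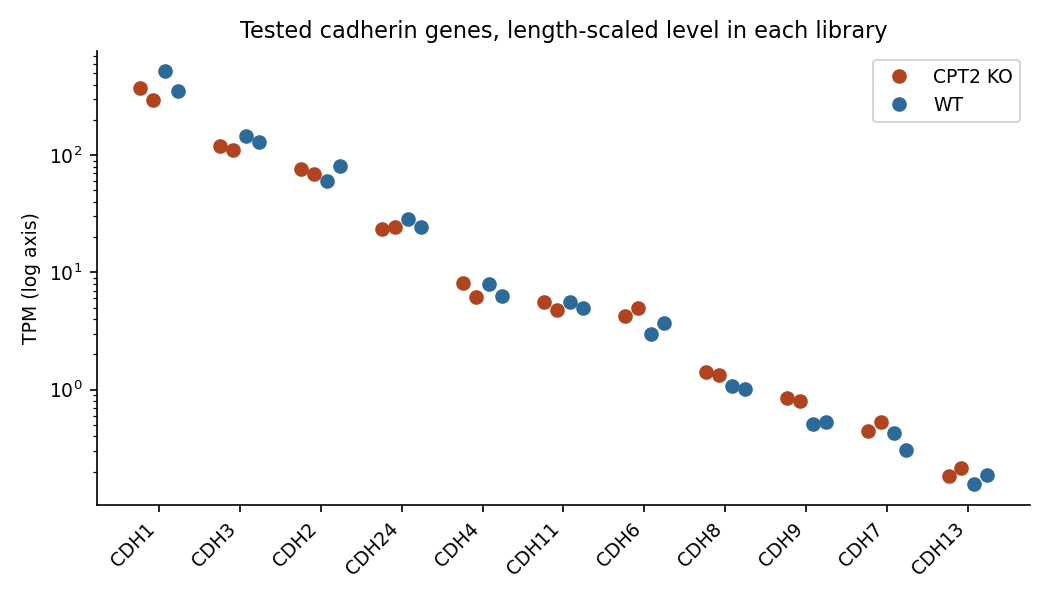
TPM (y axis, log scale) of the 11 tested cadherin genes, ordered by mean level (x axis), in the libraries labelled CPT2 KO and WT; each point is a library. CDH1 lies above every other cadherin in all 4 libraries, and CDH3 lies above CDH2.

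The cytoplasmic partners of cadherins, which anchor them to actin, gave 0 calls by edgeR among 12 tested genes, with a median log2 fold change of -0.098 and 10 negative values. The most abundant by CPM were VCL (vinculin, -0.31), CTNNA1 (alpha-catenin, -0.080) and CTNNB1 (beta-catenin, -0.058), with edgeR adjusted p from 0.528 to 0.919. VCL had 564 and 501 CPM in the libraries labelled CPT2 KO, against 680.1 and 641 CPM in those labelled WT. Partners and proteases of EpCAM gave 0 calls by edgeR among 12 tested, with a median of 0.016. Among them CD9, a tetraspanin, ADAM10, a sheddase, and SPINT1, a protease inhibitor, had log2 fold changes of -0.029, 0.011 and -0.12.

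Epithelial structure genes also gave 0 calls by edgeR. Among 15 tight junction genes the median was -0.12, and CLDN6, F11R and TJP1, the most abundant by CPM, had log2 fold changes of 0.029, -0.15 and 0.061. Among 6 desmosome genes the median was -0.059, and DSP, DSG2 and DSC2 had -0.32, -0.019 and 0.22. The 4 simple epithelial keratins had a median of -0.38. KRT8, the type II keratin of simple epithelia, had 531 and 701 CPM in the libraries labelled CPT2 KO, against 825 and 766 CPM in those labelled WT. Its partner KRT18 had 352 and 486 CPM in the libraries labelled CPT2 KO, against 587 and 515 CPM in those labelled WT. KRT19 had 44.8 and 53.6 CPM in the libraries labelled CPT2 KO, against 86.9 and 54.1 CPM in those labelled WT. For these 3 keratins both libraries labelled CPT2 KO lay below both labelled WT, as for 19.8% of all tested genes, with log2 fold changes of -0.37, -0.40 and -0.52 and edgeR adjusted p of 0.523, 0.523 and 0.529. Without replicate 2 labelled WT KRT19 was called lower, and KRT8 and KRT18 were not. KRT7 went the other way in level, with 4.90 and 5.18 CPM in the libraries labelled CPT2 KO, against 4.28 and 4.71 CPM in those labelled WT (log2 fold change 0.16, edgeR adjusted p = 0.893). With each library left out in turn the keratin median ranged from -0.61 to -0.18. Regulators of the epithelial state gave a median of -0.014 over 13 tested genes, and ESRP1 and ESRP2, splicing factors of epithelia, and GRHL2, an activator of CDH1, had log2 fold changes of -0.11, 0.059 and -0.38.

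Among other EMT transcription factors, 13 were tested and 0 were called by edgeR, with a median of 0.0060. SOX4, TCF3 and YAP1, the most abundant by CPM, had log2 fold changes of -0.17, 0.0060 and -0.099. GSC and TBXT, factors of the primitive streak, were chosen after their values were seen. GSC had 63 and 23 counts in the libraries labelled CPT2 KO and 5 and 0 in those labelled WT (log2 fold change 4.10, SE 0.87, edgeR adjusted p = 0.101). TBXT had 136 and 15 counts in the libraries labelled CPT2 KO and 9 and 4 in those labelled WT (log2 fold change 3.55, edgeR adjusted p = 0.523). With no filter on low counts, edgeR called GSC higher. With replicate number as a block, edgeR called GSC and TBXT higher, and SOX9 and TCF4 of the same list lower. GSC and TBXT passed the filter through the libraries labelled CPT2 KO alone. Both genes are also among the mesendoderm markers given above, and the part of those cells in these values was not tested.

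Corepressors used by SNAI and ZEB factors gave 0 calls by edgeR among 10 tested and a median of -0.045, with log2 fold changes of 0.0031 for HDAC2, 0.055 for KDM1A and 0.076 for CTBP2. Mesenchymal effector genes gave 0 calls by edgeR among 20 tested and a median of 0.12, and DESeq2 called 1, TAGLN, higher. ITGB1, FN1 and THY1, an integrin chain, fibronectin and a surface protein of stem cells and fibroblasts, had log2 fold changes of -0.21, -0.16 and -0.26. The TGF-beta list gave 0 calls by edgeR among 18 tested and a median of 0.021, with -0.39 for HMGA2, 0.20 for SKIL and -0.31 for LTBP1. DESeq2 called 1 gene of that list, ID1, higher. Intermediate filament genes other than VIM gave 0 calls by edgeR among 10 tested and a median of 0.086. NES, the filament protein of neural progenitors, gave 0.36 on the log2 scale (edgeR adjusted p = 0.465), LMNB1, a lamin, 0.13 and NEFM, a neurofilament protein, -1.14 (adjusted p = 0.355). NEFM was called lower by DESeq2, and by edgeR when either library labelled WT was left out.

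**Figure D4:**
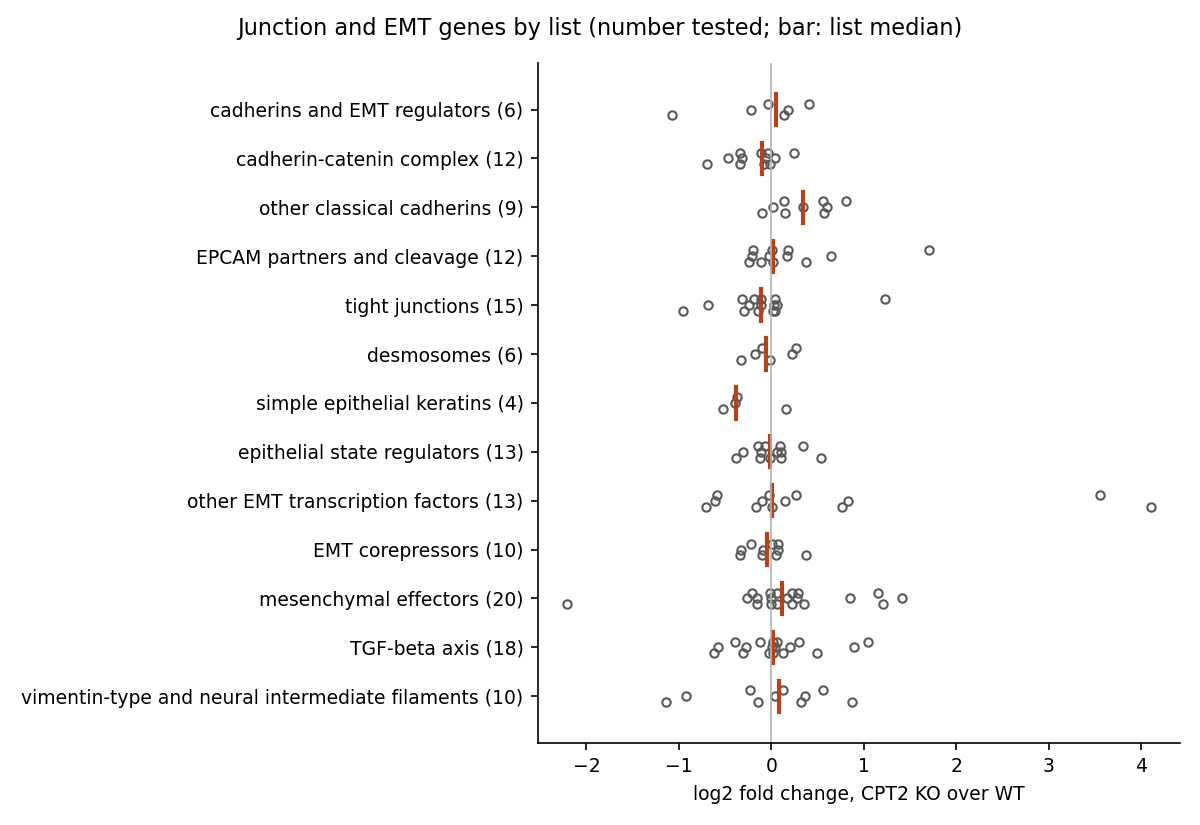
Log2 fold change of CPT2 KO over WT (x axis) for the tested genes of each list (y axis, number tested in brackets); open circles are genes, red bars list medians and the grey line the median of all tested genes, 0.0017. The medians of the lists plotted lie between -0.38 and 0.35, and the 2 circles beyond 3 are GSC and TBXT.

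Over the 143 tested genes of these lists, with each gene counted 1 time, edgeR called 0, while 32 (22.4%) had an unadjusted p under 0.05, against 9.04% of all tested genes. The groups did not overlap for 72 of them (50.3%), against 40.9% of all tested genes. The lists were chosen with earlier results of these data known, so neither share is a test of these genes. GSC and TBXT also passed the filter through the libraries labelled CPT2 KO alone. DESeq2 called 4 higher, GSC, TBXT, TAGLN and ID1, and 2 lower, TCF4 and NEFM, against 0.848% and 0.262% of all tested genes, and limma-voom called 0. Leaving out replicate 2 labelled WT, which leaves 1 library in that group, raised the number of edgeR calls among these genes and among all tested genes. TAGLN, ID1 and TCF4 are given because of the DESeq2 calls, after their values were seen. TAGLN, an actin-binding protein of smooth muscle, had 226 and 174 counts in the libraries labelled CPT2 KO and 71 and 113 in those labelled WT. ID1, a target of BMP signals, had 905 and 978 counts in the libraries labelled CPT2 KO and 359 and 630 in those labelled WT. TCF4, an E-protein, had 2150 and 1606 counts in the libraries labelled CPT2 KO and 2836 and 3243 in those labelled WT.

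For each tested gene of the set, the genes most alike in pattern were those with the smallest root mean square difference of centred log2 CPM over the 4 libraries. These were NUDT16P1 (0.0099) and TMEM131 (0.010) for CDH1, HCG18 (0.024) and PIGX (0.024) for CDH2, and TSPAN33 (0.010) and KEAP1 (0.018) for EPCAM. For VIM they were HR (0.035) and AL353804.1 (0.047), for SNAI1 JUN (0.021) and AC096992.2 (0.022), and for ZEB1 GDPD3 (0.026) and TNXB (0.032). None of these nearest genes belongs to the set, and with 4 libraries the likeness is a description only.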

How the data were processed

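Whole read counts per gene were deposited as 1 table for all 4 libraries. Reads were aligned with HISAT2 2.1.0 to GRCh38 and counted with featureCounts 1.6.4, per the submitters' processing notes, and the strand setting is not given in the sources used here. Groups follow the genotype labels, with 2 libraries each. The deposited counts list 59050 genes, of which 17564 passed the low count filter of edgeR and were tested. The test was edgeR 4.0.16 (R 4.3.3), a robust quasi-likelihood fit with TMM scaling and no covariate, with Benjamini-Hochberg adjustment over all tested genes and a threshold of 0.05. Intervals are 95% intervals of the fitted log2 fold change. DESeq2 1.42.0, limma-voom (limma 3.58.1), other scalings and filters, and each library left out were alternatives. The fit was tested on simulated data with known changes. TPM was computed from the table's gene lengths. Counts of 0 were kept as 0, and the floor of 3 counts per library is an upper limit stated beside them. The depth of 16887789 to 20460031 counts per library limits precision for genes under about 1 CPM.

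The 9 genes and the lists were chosen with earlier results of these data known. From each list the text names called genes or, with none called, the up to 3 tested ones with the highest mean log CPM, and for each tested gene of the set the 2 nearest patterns. Genes named outside this rule are to be read as chosen after their values were seen, whether marked in place or not. Examples without a mark are KRT7, MIR200CHG, MIR205HG and most cell type markers named singly. CPT2, the check of the labels, and the antisense partners were also covered by the rule. Positions and transcripts are from GENCODE 29 and sequences from RefSeq (GRCh38.p14), where 4 of the 9 genes matched in the promoter table.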

Additional observations from a re-analysis of the deposited data

How the results depend on the processing

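With 2 libraries a group, the values of single libraries set most limits, and the causes of the changes below were not tested. The count of genes called higher was 63, against 101 with no filter, 149 by DESeq2 and 233 with the replicate block, and ran from 31 to 531 with a library left out. The count called lower was 10, against 23 with no filter, 46 by DESeq2 and 140 with the block, and ran from 2 to 674. The share of calls that were higher was 86.3%, against 62.5% with the block and 44.1% without replicate 2 labelled WT. The replicate numbers are not said to pair the libraries, and the 2 groups' deviations correlated at 0.173 over 17564 genes. Of the 6 tested genes of the set, 0 were called higher, with 0 to 1 when a library was left out, the 1 being VIM without replicate 1 labelled WT. The lists gave 0 genes called higher, against 1 with no filter, 4 by DESeq2 and 4 with the block, and 0 to 7 with a library left out. They gave 0 called lower, against 2 by DESeq2 and 3 with the block, and 0 to 11 with a library left out. Directions turned for CDH2 without replicate 1 labelled WT (-0.090, range -0.090 to 0.51), for EPCAM without replicate 1 labelled CPT2 KO (0.12) or WT (0.079; range -0.21 to 0.12), for VIM without replicate 2 labelled WT (-0.11, range -0.11 to 1.20) and for SNAI1 without replicate 1 labelled CPT2 KO (-0.18, range -0.18 to 0.37). CDH1 and ZEB1 kept a negative sign under every alternative that tested them, and no alternative called them. The CPT2 value was 1.69 without replicate 1 and 1.87 without replicate 2 labelled CPT2 KO, and was then not called. The CDH2 to CDH1 ratio averaged 0.219 in the libraries labelled CPT2 KO in TPM and 0.166 in CPM, without gene length. With any CANNTG as the E-box, 3 of the 4 matched genes held one, against 1 for the narrower word. Genes under about 1 CPM, here SNAI2, ZEB1, ZEB2 and TWIST1, are limited by counting error.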
